A study of Sus scrofa with 36 samples.

Results

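The genes of the cytosolic ribosomal proteins were followed through the thyroid glands of 36 pigs. A probe of the array was taken as a member when its gene name in the scanner files began with RPL or RPS followed by a digit, or was RPLP0, RPLP1, RPLP2 or RPSA, with the RPS6K kinases left out. This gave 300 probes of 85 gene names among the 60305 probes of the array. Of these, 294 probes of 83 names were in the deposited table of 46097 probes and were analysed. The other 6, among them probes of RPS29, RPS28, RPS26, RPL13 and RPS4X, were well above background on 0 to 2 arrays. RPL13 and RPS4X had no other probe under these names. The 294 probes comprised 169 with large subunit names (48 genes) and 125 with small subunit names (35 genes). They included 6 names of pseudogenes (RPS10P5, RPL21P28, RPL13AP5, RPL13AP3, RPS26P11 and RPS2P32) and RPS19BP1, which binds a ribosomal protein but is not part of the ribosome. A gene had 1 probe in 37 cases and more in 46 cases, and RPL5 (19 probes), RPL7 (17), RPL6 (15), RPS4 (15), RPL10A (11) and RPS3A (10) had the most. Probes of a gene often overlap and are not independent measurements.

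All animals were castrated growing males. They were of the Creole breed (CR), the Large White breed (LW) or the F1 cross of both, and were labelled 24 °C or 30 °C. Breed and temperature made 6 groups of 6 pigs, and each array held 1 pig. The protocol text of the records gives a heat exposure of 5 days at 32 °C rather than the labelled 30 °C, and the study's methods give 4 or 5 days. Pigs of the 24 °C groups were slaughtered before the exposure and those of the 30 °C groups after it, so the temperature cannot be told apart from the age and the day of slaughter. Littermates were used, so breed and the families sampled cannot be told apart. Pigs of a breed also shared pens, and the study's own model held pen, day of slaughter, sire and dam as random terms. Exact ages, litters, pens and days are not in the labels used here. The fits below therefore took the pigs as independent, and their SEs and p-values do not allow for shared litters or pens. Pig numbers within a group below are names in record order and pair nothing.

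The ribosome makes all proteins of the cytosol. Its small subunit, with the RPS proteins, decodes the mRNA, and its large subunit, with the RPL proteins, joins amino acids. Ribosomal protein mRNAs belong to the most abundant mRNAs of a cell, and most begin with a terminal oligopyrimidine (TOP) tract through which the mTOR kinase adjusts their translation, so that their translation can move without their mRNA level. In the thyroid the ribosomes of the follicle cells make thyroglobulin, the large protein precursor of thyroid hormone.

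Every array had 72.8% to 80.3% of its probes well above background, and 0 spots were saturated. The thyroid label was checked on the follicle markers. Of 12 genes listed, 9 were on the array and 7 in the deposited table, all 7 well above background in all 36 pigs, and their mean log2 value lay between 13.60 and 14.52 in every pig. The markers of other cells differed more. The mean of 6 adipocyte genes was 9.997 to 11.15 in CR_24, 9.58 to 10.72 in CR_30, 10.03 to 11.31 in F1_24, 9.999 to 11.05 in F1_30, 9.62 to 10.40 in LW_24 and 9.19 to 10.16 in LW_30. The 36 arrays lay on 5 slides, and slides 1 to 4 held pigs of all 6 groups.

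The ribosomal protein probes were bright and steady. Values are the deposited log2 intensities, and the level of one probe is not compared with that of another. The mean of a member over the pigs had quartiles of 14.42, 15.98 and 16.83, against a median of 8.38 over all probes, and 227 of 294 members were at 14 or more. The SD within a group had a median of 0.124 log2 for the members, 0.177 for all probes and 0.142 for all 2107 probes with a mean of 14 or more. There were 15 members with an SD over 0.3 and 6 with an SD over 0.5. Of the members, 290 were well above background in all 36 pigs. The 4 exceptions were probes of RPLP1 (24 arrays), RPS26P11 (27), RPS26 (31) and RPS23 (31). Probes of identical sequence made 5 pairs, and their means differed by -0.28 (RPL35) to 0.02 (RPL29) log2 although the target was the same.

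The mean over the 294 members was nearly the same in each group. It was 14.93 ± 0.086 in CR_24, 14.97 ± 0.085 in CR_30, 14.98 ± 0.050 in F1_24, 14.93 ± 0.075 in F1_30, 14.95 ± 0.076 in LW_24 and 15.01 ± 0.077 in LW_30 (SD, n = 6 pigs each). Single pigs ranged from 14.81 in CR_24 to 15.10 in LW_30, and all 6 groups overlapped. Quantile normalisation gives each array the same distribution of values, so a shift shared by all mRNAs would not be seen here. In whole glands, fewer cells of a type and less RNA per cell cannot be told apart.

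**Figure D1:**
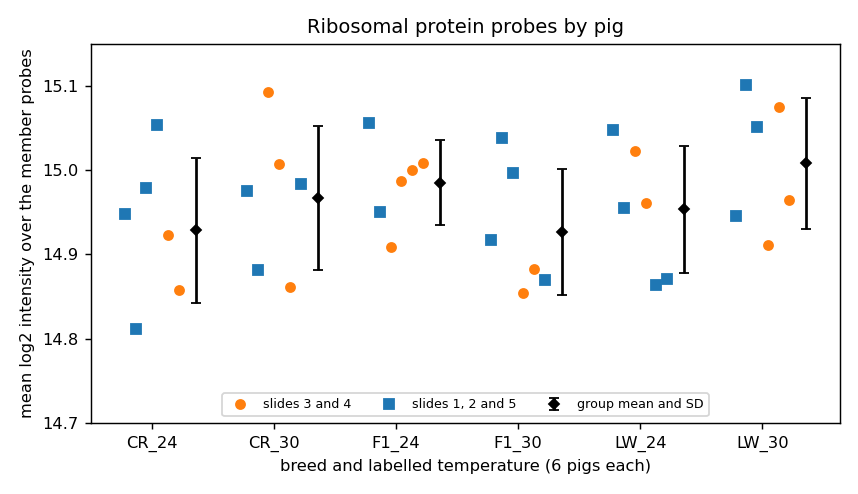
Mean deposited log2 intensity over the 294 ribosomal protein probes in each pig, by breed and labelled temperature; orange circles are pigs on slides 3 and 4, blue squares pigs on the other slides, and the black diamond and bar give the group mean and SD of 6 pigs. The groups overlap, with pigs between 14.81 and 15.10.

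The first question was whether heat changed ribosomal protein mRNAs over the breeds. No member passed the test (limma, breed and temperature as terms, adjusted p under 0.05), whereas 1.18% of all 46097 probes did. At an unadjusted p under 0.05 there were 11 members (3.74%), against 9.73% of all probes. The members' median difference of 30 °C from 24 °C was 0.020 log2, that of all probes was 0.009, and the median SE of a member was 0.043. Values were higher at 30 °C for 213 members (72.4%), against 55.7% of all probes. Of the large subunit probes 129 of 169 were higher, with a median difference of 0.022, and of the small subunit probes 84 of 125, with a median of 0.013. Differences of more than 0.3 log2 in either direction were seen for 2 members, both RPL6 probes, which are described below. Markers of some other cells, but not of all, were mostly lower at 30 °C. Lymphocyte markers had 10 of 24 probes higher, with a median of -0.01, and 0 called. The 2 probes of parathyroid and C cells were both higher and not called. Of the 33 adipocyte probes 31 were lower at 30 °C, with a median of -0.30, and of the 41 skeletal muscle probes 40, with a median of -0.17, and 0 of either were called. Of the 5 erythroid probes all were lower and 1 was called, HBB, a haemoglobin chain, which fell by 1.00 log2 (limma, adjusted p = 0.00145). The mean of 4 erythroid genes was 7.50 to 8.12 in CR_24, 7.33 to 7.86 in F1_24 and 7.55 to 8.38 in LW_24, and 6.85 to 7.64, 7.0005 to 7.39 and 7.07 to 7.76 in the same breeds at 30 °C. The part of these cells in the differences of the members was not tested.

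The member nearest to a heat call was a probe of RPL11, a large subunit protein that, free of the ribosome, binds the MDM2 ubiquitin ligase together with RPL5. Probe A_72_P788989 had a lowest, median and highest log2 value of 10.02, 10.31 and 10.60 in the 18 pigs at 24 °C and of 9.65, 10.08 and 10.42 in the 18 pigs at 30 °C. The ranges overlapped over most of their width. The difference was -0.21 log2 (SE 0.056, limma adjusted p = 0.0521). The other 4 RPL11 probes differed by 0.01 to 0.03. Among them A_72_P041441 spanned 17.26 to 17.56 at 24 °C and 17.23 to 17.65 at 30 °C. The first 30 bases of both probes are shown because they were named for one gene and gave different readings; both are in lower case as no part is singled out.
RPL11 A_72_P788989: gctgcgatctttactgttacctcctgttct
RPL11 A_72_P041441: gggatcatccttcctggcaaataaattccc

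The heat difference was then read within each breed. No member passed in CR, F1 or LW (limma on 6 group means), where 0.375%, 0.377% and 0% of all probes passed. At an unadjusted p under 0.05 there were 4, 20 and 4 members. The median member was 0.034 log2 higher at 30 °C in CR, 0.048 lower in F1 and 0.060 higher in LW, beside 0.008, 0.007 and 0.009 for all probes. Higher values at 30 °C were given by 82.7% of the members in CR, 26.2% in F1 and 84.4% in LW. Among all probes these shares were 53.3%, 52.0% and 53.7%. The median of F1 thus had another sign than those of CR and LW. The breed by temperature interaction, tested probe by probe, was called for 0 members and for 0% of all probes, with 9 members (3.06%) and 4.66% of all probes at an unadjusted p under 0.05. The lowest adjusted p of a member was 0.308 in CR, 0.101 in F1 and 1.00 in both LW and the interaction.

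Breed moved more probes than temperature. Between Large White and Creole 12.9% of all probes were called (7.15% higher in LW and 5.74% lower), and among the 294 members 12 were called (4.08%), 7 higher and 5 lower. The members' share was below this background, and also below the 11.5% of the 2107 bright probes. At an unadjusted p under 0.05 there were 54 members (18.4%), against 26.2% of all probes. The median member was 0.034 log2 higher in LW, beside -0.001 for all probes, and 206 members (70.1%) were higher, beside 49.7%. Large subunit names, with 169 of the 294 probes, gave 9 of the 12 calls, and small subunit names, with 125 probes, gave 3. Several of the 9 were overlapping RPL32 probes, described below. The adipocyte markers moved with this comparison. All 33 of their probes were lower in LW and 19 (57.6%) were called, with PLIN1, a lipid droplet protein, at -1.20 log2 and the adipokine ADIPOQ at -1.31. Of 41 skeletal muscle probes 13 were higher in LW, with a median of -0.23, and 6 were called, all higher and all among the 17 of ACTA1, muscle actin, of which 9 were higher. Of 24 lymphocyte probes 0 were called. The part of adipose tissue or muscle in the differences of the members was not tested. The count of 12 changed to 7 with processed signals scaled to the 75th percentile, where 11.96% of all probes were called. The count became 24 of 294 with slide as a fixed term, still a lower share than the 15.6% of all probes called there. It was 5 without LW_30 pig 3 or CR_24 pig 6, 6 without CR_24 pig 2, LW_24 pig 1 or LW_24 pig 3, 7 without CR_30 pig 5 or LW_30 pig 2, and 20 without CR_30 pig 3.

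**Figure D2:**
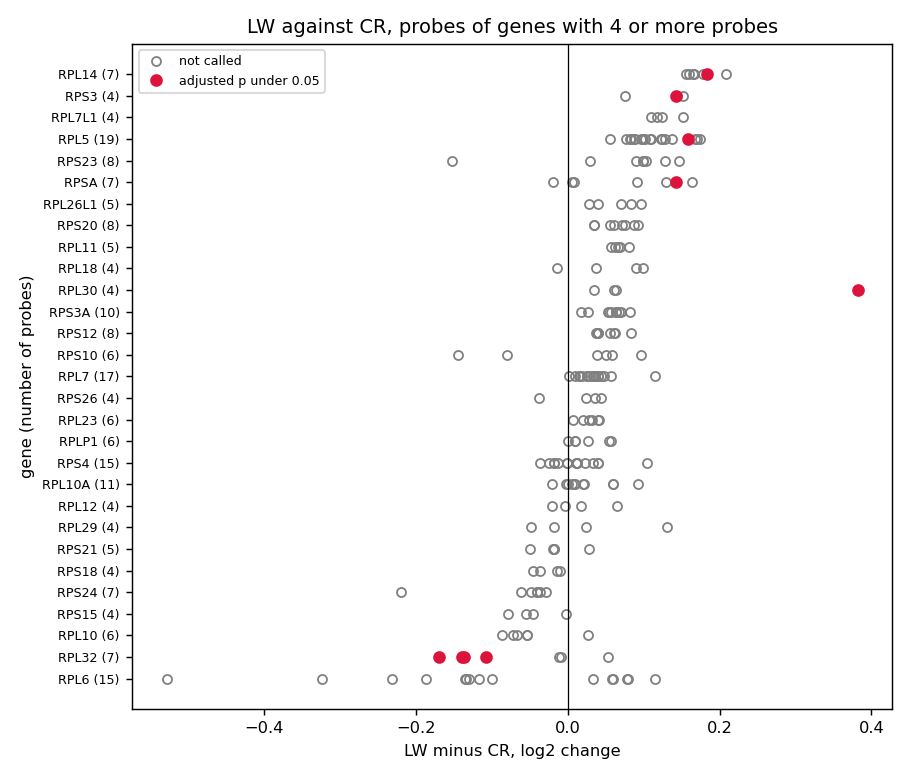
Difference of Large White from Creole pigs (log2, limma) for the probes of 29 of the 30 ribosomal protein genes with at least 4 probes, 1 line per gene with its number of probes; red points are called at an adjusted p under 0.05. Most points of RPL14, RPS3 and RPL5 lie to the right of 0 and the called RPL32 probes to the left, while the called RPL30 probe at 0.38 lies far from the other probes of its gene.

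RPL32, a large subunit protein, was the gene with the most called probes. Probe A_72_P726053 had a lowest, median and highest log2 value of 17.09, 17.20 and 17.31 in the 12 CR pigs, 16.99, 17.12 and 17.27 in the F1 pigs and 16.91, 17.03 and 17.20 in the LW pigs. The LW pigs lay lower, with overlap. The difference of LW from CR was -0.17 (SE 0.037, limma adjusted p = 0.00169), the lowest adjusted p of any member. The other called probes fell by 0.14 (A_72_P441743, adjusted p = 0.0248), 0.14 (A_72_P735568, 0.0376) and 0.11 (A_72_P758622, 0.0407). The calls of A_72_P735568 and A_72_P758622 were lost in 1 and 3 of 7 alternatives, and kept in 26 and 23 of the 36 fits without 1 pig. Those of A_72_P726053 and A_72_P441743 were kept in all of these. The remaining 3 probes of the gene gave -0.01, -0.01 and 0.05. The split followed the probe sequences. The called probes formed pairs that shared 52 and 26 bases, and the longest run shared between those pairs was 13 bases, whereas no uncalled RPL32 probe shared more than 6 bases with any other. The stretches below are 30 bases of each probe, with A_72_P726053 standing for the first pair, and capitals mark bases shared within a pair.
RPL32 A_72_P726053: gaaaGAATAGTGGGCTCGTGTGCACATTGT
RPL32 A_72_P735568: ATCCAGTGTTGCAACGAGTTGTGGCAgatg
RPL32 A_72_P758622: aaggATCCAGTGTTGCAACGAGTTGTGGCA
RPL32 A_72_P714298: tcaaaaagaggaccaagagttcatccggca
RPL32 A_72_P732615: agaaaacaaagcacatgctgcccgtggctt
RPL32 A_72_P751470: acaaatcatactgtgctgagattgctcaca

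RPL38, a small protein at the surface of the large subunit, gave the largest difference of a called member. Its probe A_72_P016041 had values of 12.30, 12.73 and 13.05 in CR, 12.54, 12.74 and 14.52 in F1 and 12.30, 13.63 and 14.83 in LW (lowest, median and highest of 12 pigs). The pigs fell into separate levels. The higher level, 14.41 to 14.83, held 8 pigs, and the lower, 12.30 to 13.05, held the other 28, with no pig in between. The higher level was held by 0 of 12 CR pigs, 2 of 12 F1 pigs and 6 of 12 LW pigs, and by 3 of 6 LW pigs and 1 of 6 F1 pigs at each temperature. These pigs lay on slides 1 (3 pigs), 2 (3), 3 (1) and 4 (1). The difference of LW from CR was 0.89 (SE 0.289, limma adjusted p = 0.0372), a call that was lost in 1 of 7 alternatives (adjusted p = 0.0623). It was kept in 26 of the 36 fits without 1 pig (highest adjusted p 0.0742). The second probe, O12413, lay between 16.03 and 16.31 in the 8 pigs and between 16.08 and 16.48 in the other 28, and its breed difference was -0.12 (adjusted p = 0.111). The first 30 bases of both are shown since only one of the RPL38 probes separated the pigs.
RPL38 A_72_P016041: tggttgcctcaaaatcctgggctgtgatcc
RPL38 O12413: ttcaaagttcgatgcagcagatacctgtac

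**Figure D3:**
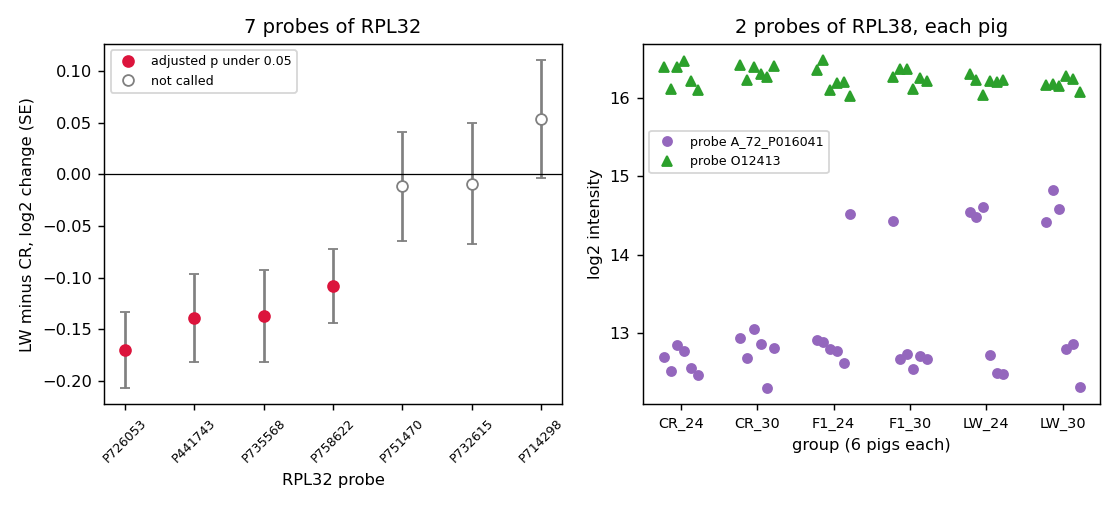
Left, the difference of Large White from Creole pigs (log2) with its SE for the 7 RPL32 probes, with called probes in red; right, the deposited log2 intensity of both RPL38 probes in each pig by group. The called RPL32 probes lie between -0.17 and -0.11 and the others near 0, and on RPL38 A_72_P016041 8 pigs, none of them Creole, lie between 14.41 and 14.83 and the other 28 at 13.05 or below.

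The other called large subunit probes were higher in LW. RPL5, which carries the ribosomal RNA of the smallest size into the large subunit, had 1 of 19 probes called, A_72_P725323, with 15.42, 15.60 and 15.83 in CR and 15.62, 15.72 and 15.92 in LW. Its difference was 0.16 (SE 0.051, limma adjusted p = 0.0335), and all 19 RPL5 probes were higher, by 0.06 to 0.17. This call was lost in 2 of the 7 alternatives and kept in 27 of the 36 fits without 1 pig. RPL14 was alike in that all its 7 probes were higher, by 0.16 to 0.21. The called RPL14 probe, A_72_P683539, had 14.83, 14.98 and 15.35 in CR and 15.04, 15.21 and 15.49 in LW, a difference of 0.18 (SE 0.062, adjusted p = 0.0443), and this call was lost in 3 of 7 alternatives and without any one of 15 of the 36 pigs (highest adjusted p 0.180 and 0.0863). RPL7A was read by a single probe, with 10.92, 11.14 and 11.46 in CR and 11.14, 11.44 and 11.75 in LW, which differed by 0.26 (SE 0.079, adjusted p = 0.0229). For all 3 genes the upper CR pigs reached into the LW range. RPL30 differed by 0.38 on its probe O2275 (SE 0.126, adjusted p = 0.0395), with 7.33, 8.18 and 8.78 in CR and 8.23, 8.49 and 8.72 in LW, and its other 3 probes differed by 0.03 to 0.06. The RPL30 call was kept in all 7 alternatives but in only 25 of the 36 fits without 1 pig (highest adjusted p 0.0821).

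Of the small subunit proteins, RPS3, RPSA and RPS13 had a called probe. RPS3, which lies where the mRNA enters the ribosome and also acts in DNA repair, had all 4 probes higher in LW, by 0.08 to 0.15. Its called probe, A_72_P765707, had 17.59, 17.75 and 17.91 in CR and 17.72, 17.82 and 18.14 in LW, a difference of 0.14 (SE 0.046, limma adjusted p = 0.0323). RPSA, also known as the laminin receptor, gave 0.14 on A_72_P004351 (SE 0.049, adjusted p = 0.0469), with 14.07, 14.28 and 14.41 in CR and 14.24, 14.40 and 14.54 in LW. Of the 7 RPSA probes 6 were higher, over a range of -0.02 to 0.16. The RPSA call was lost in 4 of 7 alternatives, slide as a fixed block included, and without any one of 17 of the 36 pigs (highest adjusted p 0.125 and 0.0890). The RPS3 and RPS13 calls were lost in 1 and 2 of the 7, and kept in 28 and 36 of the 36 fits without 1 pig. RPS13 went the other way on O11240, with 16.24, 16.60 and 16.82 in CR, 15.92, 16.48 and 16.75 in F1 and 16.01, 16.12 and 16.75 in LW, a difference of -0.32 (SE 0.092, adjusted p = 0.0190). The LW pigs filled nearly the whole CR range although their median was lower, and the second RPS13 probe gave 0.01.

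The probes of a gene agreed in sign for some genes only, and seldom in being called. Among the 30 genes with at least 4 probes, all probes were higher in LW for 12 (RPL5, RPL7, RPL7L1, RPL11, RPL14, RPL23, RPL26L1, RPL30, RPS3, RPS3A, RPS12 and RPS20) and lower for 4, among them RPS15, RPS18 and RPS24. RPL7, with 17 probes, differed by 0.002 to 0.11, RPS3A, with 10, by 0.02 to 0.08, and RPS24, with 7, by -0.22 to -0.03, and none of these probes was called.

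The F1 cross was compared with each parent breed, and these comparisons share pigs with the one above. Between F1 and CR 2 members were called, both higher in F1, beside 3.38% of all probes. RPS23, which sits at the decoding centre, had 17.05, 17.23 and 17.52 in CR, 17.13, 17.47 and 17.78 in F1 and 17.19, 17.37 and 17.60 in LW on A_72_P761452. Its difference of F1 from CR was 0.24 (SE 0.062, limma adjusted p = 0.0260), and its 8 probes gave -0.25 to 0.24. RPL7L1, a paralog of RPL7 that acts in ribosome assembly, had 12.55, 12.90 and 13.01 in CR and 12.83, 13.01 and 13.18 in F1 on A_72_P743674. It differed by 0.17 (SE 0.048, adjusted p = 0.0412), with all 4 probes higher by 0.11 to 0.17. The ranges of both genes overlapped. The RPS23 call was lost in 2 of 7 alternatives, and the RPL7L1 call in 3, with remade values, 75th percentile scaling and position on the slide (highest adjusted p 0.0644 and 0.0731). Between F1 and LW no member was called, beside 2% of all probes, and the lowest limma adjusted p of a member was 0.125. At an unadjusted p under 0.05 there were 12 members (4.08%), against 13.4% of all probes. Against the mean of both parent breeds no member was called either, beside 0.449%. There, 9 members (3.06%) had an unadjusted p under 0.05, against 10.4% of all probes. The median member of F1 was 0.006 log2 above CR, 0.032 below LW and 0.010 below the mean of both. The sign of each median depended on the processing. With 75th percentile scaling F1 was 0.006 above LW and 0.014 above the mean of both. With position on the slide as a block it was 0.006 below CR. Adipocyte markers moved with the difference of F1 from LW, as 22 of their 33 probes (66.7%) were called, all higher in F1, with a median of 0.74, and their part was not tested.

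Several proteins with particular roles were read whatever their values. RPLP0, RPLP1 and RPLP2 form the stalk that recruits elongation factors. RPLP0 had 12.71, 13.12 and 13.46 in CR and 13.13, 13.29 and 13.60 in LW on O13253, a difference of 0.21 that was not called (limma adjusted p = 0.0571), and heat gave -0.06. It was called with slide as a fixed block (adjusted p = 0.0434) or a random block (0.0448). A further 13 probes were RPLP0 by accession only and so outside the rule. One of these was called higher in LW, A_72_P271784, at 0.22 (adjusted p = 0.0261). RPLP1 and RPLP2 lay between 18.16 and 18.49 and between 17.68 and 18.08 over all pigs. Their heat differences were 0.01 and 0.03, and their differences of LW from CR were -0.0002 and -0.02. The RPSA probe with the highest mean, O4734, gave 0.04 with heat and -0.02 between LW and CR.

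RPS6, the ribosomal protein that S6 kinase phosphorylates below mTOR, differed between its probes. O8731 had 15.12, 16.36 and 16.70 in CR, 16.03, 16.59 and 16.71 in F1 and 16.32, 16.62 and 16.78 in LW, so that the CR range reached far below the LW range. The difference of LW from CR was 0.40 (SE 0.141, limma adjusted p = 0.0562). It was called with slide as a fixed block (adjusted p = 0.0498), slide as a random block (0.0465) or position as a block (0.0497), while the other RPS6 probe gave -0.09 and the heat difference of O8731 was -0.04. The brightest RPL5 probe gave 0.02 with heat and 0.08 between LW and CR. RPL3L and RPL10L, paralogs known from muscle and testis, had means of 16.39 and 16.10, and whether these probes also bind the mRNAs of RPL3 and RPL10 was not tested. RPL3L differed by -0.02 with heat and by -0.004 between LW and CR. For the paralogs RPL22L1 and RPS27L heat gave -0.05 and -0.01, and LW from CR gave 0.07 and 0.06, with 0 calls. RPL39L had no probe by this name.

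Other genes of translation were set beside the ribosomal proteins. A list of genes whose mRNAs, like those of most ribosomal proteins, carry a TOP tract had 78 probes of 16 genes. It held translation factors and some other genes, among them TPT1 (18 probes), NAP1L1, HNRNPA1 and NPM1. With heat 0 of the 78 probes were called, with a median of 0.030 log2. Between LW and CR 5 were called, all higher (6.41%, beside the 12.9% of all probes). EEF1A1, the elongation factor that delivers aminoacyl-tRNA, had 4 of its 21 probes called, at up to 0.28 (limma adjusted p = 0.0156). Of the 21 EEF1A1 probes 16 were higher in LW. PABPC1, the poly(A) binding protein, gave 0.17 on 1 of its 2 probes (adjusted p = 0.0269), while the other was lower. Initiation factors and the mTOR pathway (39 probes of 19 genes) had 0 heat calls. Between LW and CR 3 were called higher and 2 lower in LW (12.8%, near the 12.9% of all probes). EIF4EBP2, a translational repressor under mTOR, fell by 0.32 (adjusted p = 0.00151), RPS6KB1, the S6 kinase, rose by 0.26 (adjusted p = 0.0106) and TSC1, an mTOR inhibitor, fell by 0.21 (adjusted p = 0.0164). These are values of 1 probe each, and 3 of 3, 3 of 4 and 2 of 3 probes of these genes had the same sign.

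Ribosome assembly had the 2 heat calls found in these lists of translation genes, among 56 probes of 31 genes (3.57%, beside 1.18% of all probes). MYC, a transcription factor that drives ribosome production, was lower at 30 °C by limma at -0.32 (adjusted p = 0.0378). This was 1 of its 4 probes, all of them lower. NOP14, a small subunit assembly factor with 1 probe, was higher at 0.47 (adjusted p = 0.0416). Between LW and CR 8 assembly probes were called (14.3%, near the 12.9% of all probes), 5 higher and 3 lower. NCL, nucleolin, gave 1.00 on 1 of its 2 probes (adjusted p = 0.00108), and the other was higher but not called. UTP18 gave -0.72 on its 1 probe (adjusted p = 0.00592). NOP56 gave 0.23 on 1 of its 2 probes (adjusted p = 0.0191), while the other was lower. Mitochondrial ribosomal proteins, a separate set of proteins, had 80 probes of 56 genes with 0 heat calls and 4 between LW and CR (5.00%), 1 higher and 3 lower, led by MRPL9 at -0.24 (adjusted p = 0.000620). RACK1, a small subunit protein outside the rule by name, was called between LW and CR on 1 of its 7 probes, at 0.22 (adjusted p = 0.0232). All 7 were higher in LW. Ribosomal proteins outside the rule by name (RPLP0, RPL22 and RPL13A, 17 probes by accession) had that same RPLP0 call and no other.

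RPL6, of the large subunit, stood out by single pigs and was chosen after its values were seen. Of its 15 probes, 9 were lower in 4 pigs than in the other 32, with mean differences of -1.94 to -0.42 log2, and the other 6 were higher by 0.04 to 0.13 in the same 4 pigs. The pigs were LW_30 pigs 3 and 4 and F1_30 pigs 3 and 4, on slides 2 and 3. The most variable probe, A_72_P756548, read 11.09, 12.35, 11.78 and 12.36 in them, and 14.46 at the highest in another pig. The brightest RPL6 probe read 18.71, 18.45, 18.51 and 18.37 in these pigs, within 18.26 to 18.71 of all pigs. All 4 pigs were of 30 °C groups, and the pigs were chosen by these values, so no test was made. The 5 most variable RPL6 probes shared a run of 16 bases, in capitals below, and are shown whole. The longest runs in common with A_72_P756548 were 4 bases for A_72_P734143 and 11 for A_72_P722393. These probes were also lower in the 4 pigs, by mean differences of -0.45 and -0.46. For the 6 probes that were not lower, the runs were 5 or 6 bases. Whether A_72_P734143 overlaps other low probes was not tested.
RPL6 A_72_P756548: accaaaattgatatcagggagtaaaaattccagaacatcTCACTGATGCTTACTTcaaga
RPL6 A_72_P729538: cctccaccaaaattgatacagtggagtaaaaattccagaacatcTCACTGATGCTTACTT
RPL6 A_72_P730073: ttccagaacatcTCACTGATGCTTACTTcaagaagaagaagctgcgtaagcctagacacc
RPL6 A_72_P720998: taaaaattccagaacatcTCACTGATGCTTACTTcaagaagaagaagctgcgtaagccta
RPL6 A_72_P761955: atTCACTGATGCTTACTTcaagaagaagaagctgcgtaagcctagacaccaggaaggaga

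**Figure D4:**
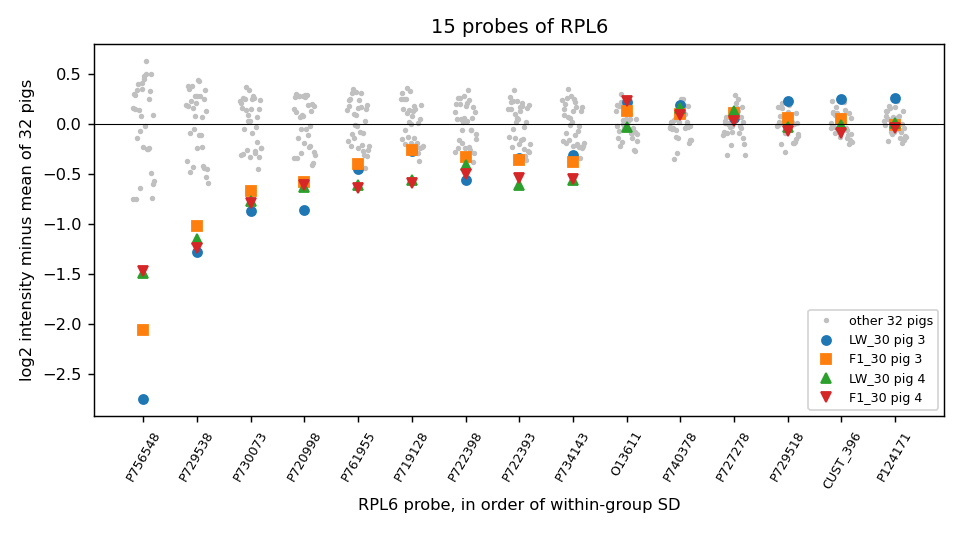
Log2 intensity of the 15 RPL6 probes in each pig, as the difference from the mean of the 32 pigs drawn in grey, with probes ordered by their SD within groups; the 4 pigs of the 30 °C groups named in the key have coloured symbols. On the first 9 probes these pigs lie below 0, with mean differences of -1.94 to -0.42, and on the last 6 their mean differences are 0.04 to 0.13.

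The slide also moved the members. The first principal component of the members' values within groups held 39.4% of their variance and separated the 16 arrays of slides 3 and 4 from the 20 of slides 1, 2 and 5 without overlap. The mean over the members did not separate them, at 14.957 on slides 3 and 4 and 14.965 on the others. With slide added to the model, 75 members (25.5%) differed between slides by limma's F test, beside 14.5% of all probes. Of these, 23 were higher and 52 lower on slides 3 and 4. Members higher there by 0.5 log2 or more numbered 5 (1.70%, beside 2.07% of all probes), and they are named after seeing their values. Their SDs within groups were 0.43 to 0.98, beside a median of 0.124 for the members. How much of the first component came from these 5 probes was not tested. The probe of RPL21P28, a pseudogene name, lay between 12.14 and 12.49 on slides 3 and 4 and between 10.15 and 10.87 on the others. RPL41 lay between 9.96 and 10.50 against 8.25 to 8.95, and RPS7 between 8.85 and 9.44 against 7.42 to 8.005. RPL28 A_72_P154356 lay between 12.59 and 12.95 against 11.41 to 11.98, and RPS4 A_72_P644973 between 14.16 and 14.44 against 13.30 to 13.69. No array of one set reached the range of the other on any of the 5 probes. Slides 3 and 4 held 5 CR, 6 F1 and 5 LW pigs, and 8 pigs of each temperature. The first 30 bases of these probes are shown so that they can be recognised.
RPL21P28 O9929: tgggaaggagcctgagctgctggaatctat
RPL41 O14593: agaagctaatgcgcagtgctgaatctgcat
RPS7 O13835: ggcggggatgttaattttgaattcccagag
RPL28 A_72_P154356: ccaaagcaataaagacaacagtcttctcca
RPS4 A_72_P644973: caaatagagcagtggataaaatgatctgta

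**Figure D5:**
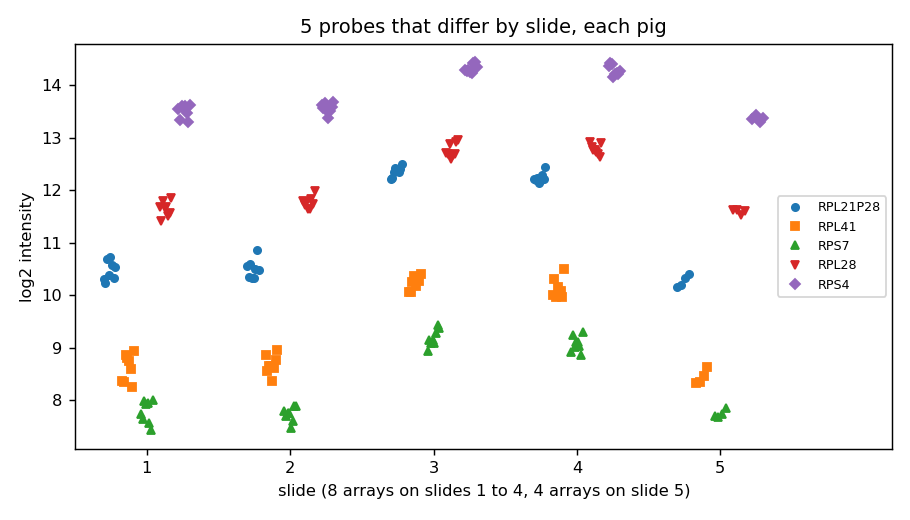
Deposited log2 intensity of the 5 ribosomal protein probes that were higher on slides 3 and 4 by 0.5 or more, in each pig by slide, with a symbol for each probe. The 16 arrays of slides 3 and 4 lie above the 20 arrays of the other slides on every one of these probes, as for RPL21P28 with 12.14 to 12.49 against 10.15 to 10.87.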

How the data were processed

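Thyroid RNA of 36 pigs (6 groups of 6) was labelled with Cy3 and hybridised to 1-colour Agilent porcine arrays, and images were read with Feature Extraction 10.10.1.1 according to the submitters' processing notes. The authors read the median pixel intensity of each spot with limma, applied quantile normalisation, kept expressed probes and deposited log2 values of 46097 probes, which were used here as given. Per the file headers, the scanner files hold linear intensity, which was used for background calls and alternatives. Values remade from these files differed from the deposited log2 values by a median of 0.0056. All 46097 probes were fitted with limma 3.58.1 (R 4.3.3), with breed and temperature as terms, or with 6 group means for heat within a breed and the interaction, and p-values were adjusted by Benjamini-Hochberg over all probes. A probe with an adjusted p under 0.05 was called. The columns of probe sequence and gene name came from the scanner files, and no genome positions were used. The members and gene lists were chosen with earlier results of these data known. All member genes with a called probe were named, together with RPLP0, RPLP1, RPLP2, RPSA, RPS6, RPL5, RPL11, RPL3L, RPL22L1, RPL39L and RPS27L, and up to 3 genes of each other list, by the smallest p. RPL6, RPS10, RPL35, RPS2, RPL10L, the RPL11 probe nearest to a call, the genes named by sign and the probes that differ by slide were chosen after their values were seen. Arrays have no read depth, and their number limits the precision. On simulated data of 46097 probes, 92 of 100 probes changed by 0.5 log2 with heat and 99 of 100 changed by 1 were called. The simulated noise was independent between arrays, with no slide, pen or litter effects. The members' heat differences had a median size of 0.028 log2, and differences this small were not simulated. Alternatives were values remade without the authors' filter, processed signals scaled to the 75th percentile, normexp background correction, a filter on dim probes, slide as a fixed or random block, position on the slide, no breed term, and leaving out each pig. Results of a few genes are not reported here.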

Additional observations from a re-analysis of the deposited data

Results flagged for a closer look

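In 156 groups of 6 pigs, over 26 probes, 10 had a highest or lowest pig far from the other 5 by Dixon's criterion. Chance marks about 1 group in 20. The log2 values of these pigs were 16.70 for RPS13 O11240 in LW_24, 17.63 for RPL32 A_72_P735568 in CR_30 and 17.13 for the same probe in F1_30, 17.83 for RPL32 A_72_P758622 in CR_30, 15.19 for RPL14 A_72_P683539 in CR_24, 18.49 for RPLP1 A_72_P113641 in LW_24, 16.63 for RPSA O4734 in LW_24 and 10.42 for RPL11 A_72_P788989 in LW_30. For RPL38 A_72_P016041 they were 14.52 in F1_24 and 14.42 in F1_30, the pigs at the higher of its levels.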

How the results depend on the processing

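With heat, 0 members were called, and 1 (RPL11 A_72_P788989, lower) with 75th percentile scaling, slide as a fixed block or slide as a random block. Leaving out single pigs gave 0 to 1, with 1 in 11 of 36 fits. Between LW and CR the count of 12 became 7 (4 higher, 3 lower) with 75th percentile scaling, beside 11.96% of all probes. It became 24 (18 higher, 6 lower) with slide as a fixed block, beside 15.6% of all probes. It lay between 8 and 17 in the other alternatives and between 5 and 20 without single pigs. Between F1 and CR the count of 2 became 1 with remade values, 1 (RPS23 A_72_P747636, lower, -0.88) with 75th percentile scaling and 0 with position as a block. It was 3 with normexp and with slide as a fixed or random block, where RPL32 A_72_P758622 was added at -0.12. The other comparisons gave 0 called members in the alternatives run for them, which did not include leaving out pigs. The median SD within groups was 0.151 with 75th percentile scaling. The cause of these changes was not tested. Uncalled values near 0 changed sign. For RPLP1 A_72_P113641 LW minus CR became 0.0029 (75th percentile), 0.0068 (normexp), 0.0115 (slide fixed), 0.0033 (slide random) and 0.0104 (position), -0.0155 to 0.0141 without single pigs, and heat became -0.0175 (75th percentile). RPL3L O10058 had a heat difference of 0.0059 (75th percentile) and -0.0219 to 0.0160 for LW minus CR without single pigs. Without single pigs, heat ranged from -0.108 to 0.0240 for RPS6 O8731 and from -0.0240 to 0.0062 for RPS27L O12511. No paired analysis was possible because the labels give no replicate numbers that tie pigs across groups. The number of arrays and, for dim probes, the signal over background limit what could be detected.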

Other observations

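A pair of RPS10 probes, chosen after their values were seen, were high in the same 3 pigs, CR_24 pig 4, CR_30 pig 5 and F1_30 pig 3. A_72_P505397 lay between 11.17 and 11.38 log2 in them and between 9.38 and 10.33 in the other 33, and A_72_P476909 between 11.09 and 11.73 against 9.68 to 10.60. The other 4 RPS10 probes overlapped between these pigs and the rest. The 2 probes shared no run of more than 5 bases, and their first 30 bases were these.
RPS10 A_72_P505397: gggtttttcatctttgtaatcaaataaaca
RPS10 A_72_P476909: agttgtccttaggcagggtgacatcacttg

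The 2 RPL35 probes of identical sequence ranged over 9.29 to 10.96 (O809) and 8.97 to 10.63 (A_72_P385723) among the pigs, with r = 0.980 between them over 36 pigs that share arrays, whereas A_72_P440021 of the same gene ranged over 16.89 to 17.36. The first 30 bases of each sequence are shown.
RPL35 A_72_P385723: ctaaactgcttggtctggattttgttgtct
RPL35 A_72_P440021: aggaaattctataagggcaagaagtacaag

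The probe named RPS2, at 8.59 to 9.25, held 23 bases whose reverse complement is in the probe named RPS2P32, at 15.76 to 16.18, so that one of them reads the opposite strand. The shared bases are in capitals.
RPS2 O3817: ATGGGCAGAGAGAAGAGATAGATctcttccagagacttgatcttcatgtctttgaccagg
RPS2P32 O2000: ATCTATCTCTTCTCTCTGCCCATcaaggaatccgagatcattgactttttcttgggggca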
